A study of Mus musculus with 18 samples.

Results

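The genes described here were 7 components of immunoglobulin G sensing in myeloid cells, the 4 mouse Fc gamma receptors Fcgr1, Fcgr2b, Fcgr3 and Fcgr4, the adaptors Fcer1g and Tyrobp, and the tyrosine kinase Syk. They were taken by symbol from a transcriptome table of the mouse heart after acute myocardial infarction (AMI), and all 7 were found among its 24419 symbols. The 18 mice were male C57BL/6 animals, 8 weeks old, all anaesthetised with sodium pentobarbital. The AMI mice had the proximal left anterior descending coronary artery tied, with 3 of them sampled after each interval (10 min, 1 h, 6 h, 24 h or 72 h). The 3 mice of the control group are called sham in the study. Poly(A) RNA of infarcted left ventricle was sequenced, so each value averages over cardiomyocytes, fibroblasts, vessels and leukocytes. Expression is given as FPKM, the fragments mapped to a gene scaled to its transcript length and to the size of the library. A gene is said here to have risen or fallen where limma on log2(FPKM + 1) gave a Benjamini-Hochberg adjusted p under 0.05, and log2 fold changes (log2FC) are on that scale, which understates the change of genes at low FPKM.

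Fc gamma receptors bind the constant region of IgG in immune complexes and on antibody-coated particles and are carried mainly by macrophages, monocytes and neutrophils. The activating receptors Fcgr1, Fcgr3 and Fcgr4 have little signalling capacity of their own and pair with the Fcer1g gamma chain, whose ITAM motif is phosphorylated by Src family kinases and then recruits Syk, while Fcgr2b carries an inhibitory ITIM motif that recruits the phosphatase Inpp5d. Tyrobp is a second ITAM adaptor, which couples Trem2 and related receptors to Syk. In the infarcted heart neutrophils arrive first, followed by monocytes that become macrophages and clear dead tissue.

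In mm10 with GENCODE M21, 4 of the 7 genes lie within one stretch of chromosome 1, namely Fcgr2b at chr1:170958617-170976547 (minus strand), Fcgr4 at chr1:171018920-171029761 (plus strand), Fcgr3 at chr1:171051174-171064935 (minus strand) and Fcer1g at chr1:171229572-171234365 (minus strand). Fcgr1 is on chromosome 3 (chr3:96282909-96293969, minus strand), Tyrobp on chromosome 7 (chr7:30413760-30417585, plus strand) and Syk on chromosome 13 (chr13:52583173-52648792, plus strand). The FPKM of Fcgr2b and Fcgr3 are uncertain in one respect, because their coding sequences share a run of 129 identical bases in the part that encodes the IgG-binding region. It crosses 1 exon junction in each gene and spans chr1:170966674-170968081 in Fcgr2b and chr1:171054167-171057792 in Fcgr3 (GRCm38, GENCODE M21).
Fcgr2b and Fcgr3 shared run: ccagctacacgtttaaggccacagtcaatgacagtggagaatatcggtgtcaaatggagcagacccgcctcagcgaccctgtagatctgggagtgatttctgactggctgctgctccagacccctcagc
Of all 100-base windows of the Fcgr3 transcripts 2.70% were found unchanged in Fcgr2b, while 0% of windows of 150 bases, the length of the reads, were. How the shared reads were divided between the genes is not given in the sources used here. No 50-base window of Fcgr1 or Fcgr4 was shared with another of these receptors.

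The promoters of the 4 receptors are shown because these genes rose together from 6 h on. RefSeq windows (GRCm38.p6, from 250 bases before to 50 after a transcription start) were found for 6 of the 7 genes, and not for Tyrobp. Both strands were searched for GAGGAA, a form of the sites bound by the myeloid factor Spi1 (PU.1), and for TTCNNNGAA, the palindrome bound by Stat factors after interferon gamma. Shorter or other forms of these sites were not searched. Each window is printed 5′ to 3′ on the strand of the gene, with the matches in capitals.
Fcgr1 (chr3:96293920-96294219, minus strand): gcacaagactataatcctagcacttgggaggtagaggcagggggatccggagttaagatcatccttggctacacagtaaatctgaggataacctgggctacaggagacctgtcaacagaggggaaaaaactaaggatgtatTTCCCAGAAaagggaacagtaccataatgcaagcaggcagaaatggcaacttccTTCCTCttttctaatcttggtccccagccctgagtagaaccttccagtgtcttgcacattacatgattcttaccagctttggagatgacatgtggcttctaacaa
Fcgr2b (chr1:170976022-170976321, minus strand): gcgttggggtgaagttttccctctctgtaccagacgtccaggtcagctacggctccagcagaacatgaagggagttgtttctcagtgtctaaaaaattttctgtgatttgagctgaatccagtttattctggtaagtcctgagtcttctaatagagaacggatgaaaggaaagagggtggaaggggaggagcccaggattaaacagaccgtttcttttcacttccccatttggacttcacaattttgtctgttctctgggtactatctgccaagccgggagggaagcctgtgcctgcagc
Fcgr3 (chr1:171059354-171059653, minus strand, the first of its pair of windows): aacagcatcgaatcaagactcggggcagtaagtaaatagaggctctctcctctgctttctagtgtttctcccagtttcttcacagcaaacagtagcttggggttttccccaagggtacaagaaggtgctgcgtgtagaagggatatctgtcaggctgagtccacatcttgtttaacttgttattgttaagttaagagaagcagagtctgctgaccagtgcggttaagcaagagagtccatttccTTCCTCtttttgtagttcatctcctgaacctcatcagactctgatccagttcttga
Fcgr4 (chr1:171018676-171018975, plus strand): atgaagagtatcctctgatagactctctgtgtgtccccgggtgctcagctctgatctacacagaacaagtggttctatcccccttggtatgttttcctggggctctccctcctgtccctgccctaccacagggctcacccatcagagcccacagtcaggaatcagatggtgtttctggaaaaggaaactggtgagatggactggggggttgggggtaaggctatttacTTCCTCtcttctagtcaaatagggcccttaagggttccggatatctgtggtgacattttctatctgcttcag
GAGGAA was found on the opposite strand, as TTCCTC, in the windows of the 3 activating receptors, with its first base at -55 from the start of Fcgr1, -6 from that of Fcgr3 and -22 from that of Fcgr4. It was in neither the Fcgr2b nor the Fcer1g window, and in 1 of the windows of Syk. TTCNNNGAA was found in the Fcgr1 window alone among these genes, at -109. These letters are common, since 28.3% of 32851 promoter windows hold GAGGAA, 8.3% hold TTCNNNGAA and 2.38% hold both.

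The tissue label was checked first. The summed FPKM of 8 cardiomyocyte genes lay between 19249 and 51742 over the 18 mice and averaged 0.408 times the control mean at 72 h. Leukocyte genes moved the other way, with the summed FPKM of 10 pan-leukocyte genes at 73.1 to 95.2 in control mice, 90.4 to 286 after 6 h, 356 to 795 after 24 h and 1190 to 1374 after 72 h. A pair of mice stood apart in their groups. Neutrophil genes summed to 1010 FPKM in the first 6 h mouse, against 120 and 382 in the other two, and to 1001 in the third 24 h mouse, against 217 and 45.7. Relative depth, estimated from the lowest FPKM, was 0.812 to 1.31 and was highest in the 72 h group (group median 1.31).

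At 10 min and 1 h none of the 7 genes rose or fell, while 0.248% and 0.669% of all genes tested rose and 0.0978% and 0.0526% fell. With an unadjusted p under 0.05 in limma there was 1 of the 7 genes at 10 min, Fcgr3, and 0 at 1 h. Over all genes tested there were 1955 of 13297 at 10 min and 1673 of 13300 at 1 h. Fcgr3 was at 11.8, 12.2 and 12.3 FPKM in the 10 min mice and at 8.52, 9.90 and 10.95 in the controls, a log2FC of 0.29 ± 0.09 (SE) with an adjusted p of 0.231. All 3 mice of the 10 min group lay above all controls, which was the case for 12.2% of all genes. At 1 h Fcgr3 was back at 8.61 to 12.1 FPKM, overlapping the controls, and for none of the 7 genes did all 1 h mice lie above all controls (7.41% of all genes). The 95% intervals of the log2FC at 1 h reached from -0.67 for Fcgr1 to 0.38 for Syk, so changes of that size could not be told from the spread.

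At 6 h 6 of the 7 genes rose against control, and 11.6% of all genes did. Every 6 h mouse lay above every control for all 7 genes, which held for 18.6% of all genes. The median log2FC of the 7 genes was 1.13, against -0.08 over all genes tested. Against control 7 of 7 rose after 24 h (26.2% of all genes) and after 72 h (53.1%), again without overlap (39.3% and 55.1% of all genes), with median log2FC of 2.34 and 3.68 against 0.13 and 0.29 over all genes. In bulk tissue more cells that carry these transcripts and more transcript per cell cannot be told apart. Without the first control mouse 2 of the 7 genes passed at 6 h (Fcgr2b and Syk), and without the second 3 did, while the rises over all genes went from 1543 to 763 and 824. The comparisons share the control mice.

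**Figure D1:**
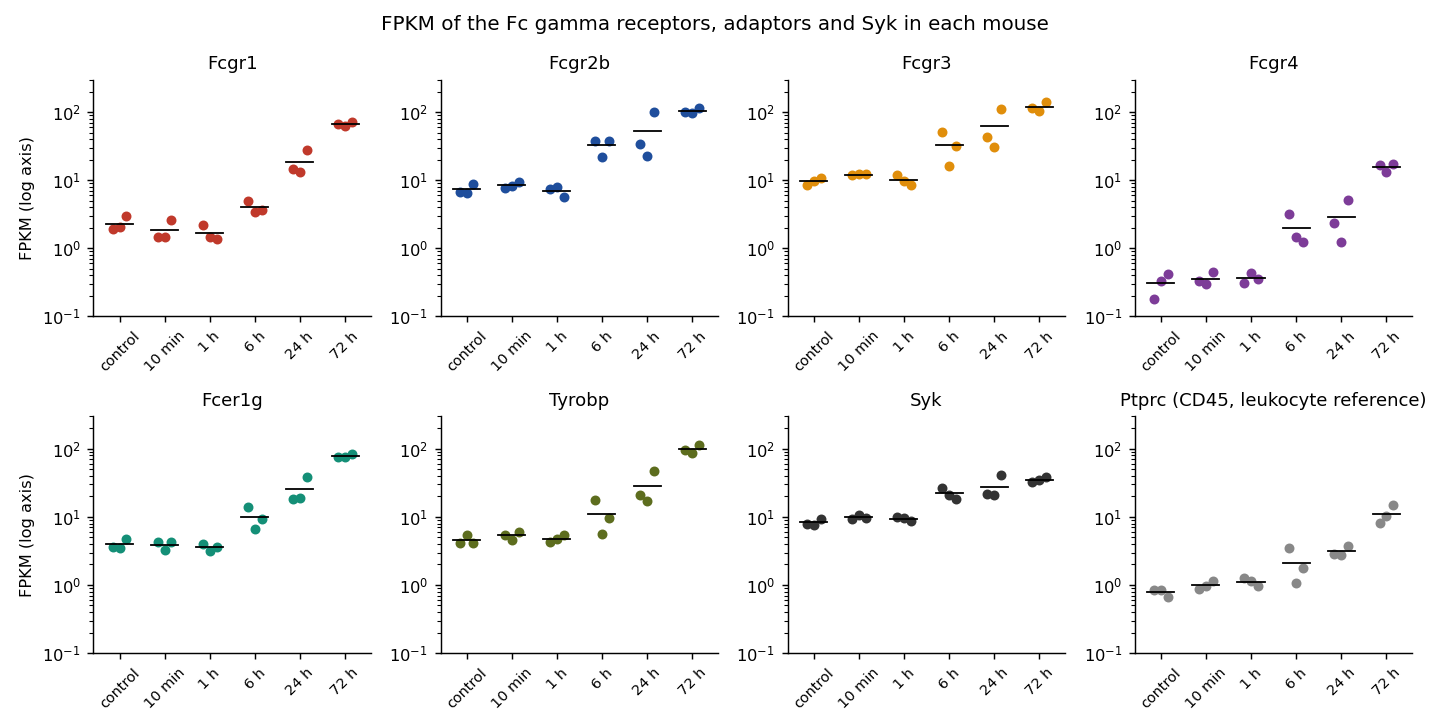
FPKM of each gene (log axis) in each of 3 mice per group, with the group mean as a line and Ptprc (CD45) as a leukocyte reference. All 7 genes were flat to 1 h, lay above control in every 6 h mouse, and were highest on average at 72 h. The third 24 h mouse is the highest of its group for each gene.

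Fcgr1, the receptor of high affinity that can hold monomeric IgG, moved late and far. It was at 1.89, 2.03 and 2.95 FPKM in control mice, 4.97, 3.38 and 3.69 at 6 h, then 14.8, 13.0 and 28.2 (24 h) and 67.3, 63.0 and 71.1 (72 h). From 6 h on no later group overlapped an earlier one. Its mean at 72 h was 29.3 times that of controls (log2FC 4.38 ± 0.12, SE, adjusted p = 2.21e-08), but at 6 h only 1.75 times (log2FC 0.61 ± 0.17, adjusted p = 0.0330). That 6 h call was lost without the filter on low values (adjusted p = 0.0624), with all 18 mice in one fit (0.0561) and with the replicate number as a block (0.0573).

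Fcgr4, an activating receptor of monocytes and neutrophils, was the lowest of the receptors in control hearts and had the largest ratio at 72 h. Control mice had 0.181, 0.330 and 0.423 FPKM, the 6 h mice 3.22, 1.46 and 1.26, the 24 h mice 2.36, 1.22 and 5.15, and the 72 h mice 16.8, 13.4 and 17.3. The 6 h and 24 h groups overlapped, and the 72 h mice lay above both. Its 24 h call was lost without any 1 of the 3 control mice. Over all genes the 24 h rises went from 3496 to 1262, 1319 and 1646 without these mice in turn. Mean FPKM of Fcgr4 was 6.36, 9.35 and 50.8 times the control mean at 6, 24 and 72 h, and its log2FC at 72 h was 3.68 ± 0.12 (adjusted p = 4.03e-08). With a pseudocount of 0.1 in place of 1 the same difference was 5.31, since the controls are under 1 FPKM.

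Fcgr3, the low-affinity activating receptor, had the highest mean level of the 4 receptors in every group, although at 6 h it was above Fcgr2b in only 1 of 3 mice. It rose from 8.52, 9.90 and 10.95 FPKM in controls to 51.4, 16.0 and 31.9 at 6 h, then to 43.8, 31.1 and 112 (24 h) and to 116, 106 and 140 (72 h). The first 6 h mouse and the third 24 h mouse were the highest of their groups, as they were for every other gene described here. These mice also had the highest neutrophil, monocyte and pan-leukocyte sums of their groups. The mean of Fcgr3 was 3.38 times control at 6 h (log2FC 1.52 ± 0.36, adjusted p = 0.0210) and 12.3 times at 72 h (log2FC 3.49 ± 0.12, adjusted p = 5.20e-08).

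Fcgr2b, the inhibitory receptor, showed the largest log2FC of the 7 genes at 6 h. This rank belongs to the log2(FPKM + 1) scale, since the ratio of means to control was larger for Fcgr4 (6.36 times against 4.41). Fcgr2b was at 6.72, 6.47 and 8.91 FPKM in controls and at 38.3, 21.6 and 37.7 at 6 h. Its 6 h mean was 4.41 times that of controls (log2FC 1.97 ± 0.23, adjusted p = 0.0018). At 24 h it stood at 34.6, 23.0 and 102 FPKM, overlapping 6 h, and at 72 h at 102, 95.9 and 117 (log2FC 3.67 ± 0.12 against control, adjusted p = 4.33e-08). The third 24 h mouse was again far above the other two of its group. Without the first or the second control mouse the 24 h call of Fcgr2b was lost, while the rises over all genes went from 3496 to 1262 and 1319.

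Of the adaptors, the gamma chain Fcer1g was at 3.62, 3.46 and 4.80 FPKM in controls, 13.9, 6.73 and 9.29 at 6 h, then 18.1, 19.2 and 39.1 (24 h) and 76.4, 75.0 and 83.0 (72 h). Each of these groups lay wholly above the one before it. Its mean was 19.7 times control at 72 h (log2FC 4.005 ± 0.105, adjusted p = 1.94e-08). Tyrobp had 4.11, 5.37 and 4.11 FPKM in controls and 17.8, 5.56 and 9.73 at 6 h, with the second 6 h mouse just above the highest control. It was the 1 gene of the 7 that did not pass at 6 h (log2FC 1.00 ± 0.34, adjusted p = 0.0658), and it passed with all 18 mice in one fit (adjusted p = 0.0304) and without its second 6 h mouse. At 24 h Tyrobp was at 21.02, 17.1 and 47.0 FPKM and at 72 h at 95.5, 87.6 and 116, 22.0 times control (log2FC 4.18 ± 0.12, adjusted p = 2.82e-08).

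Syk, the kinase both adaptors recruit, rose by 6 h, and neither later step passed. Control mice had 7.85, 7.67 and 9.48 FPKM, the 6 h mice 27.0, 21.2 and 18.6, the 24 h mice 21.5, 21.1 and 41.3, and the 72 h mice 32.1, 35.4 and 38.4. The 6, 24 and 72 h groups each lay above control, the 24 h group overlapped both its neighbours, and the third 24 h mouse was the highest of all 18. The mean was 2.67 times control at 6 h (log2FC 1.31 ± 0.15, adjusted p = 0.00172) and 4.24 times at 72 h (log2FC 1.96 ± 0.10, adjusted p = 3.75e-07), the smallest log2FC of the 7 genes at that time.

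**Figure D2:**
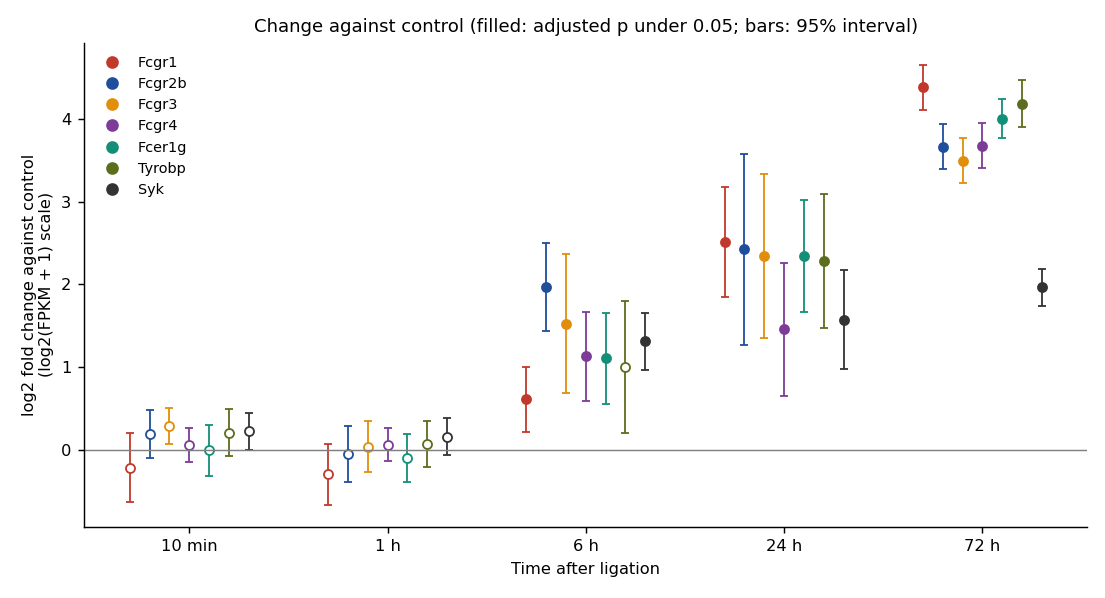
The log2 fold change of each gene against control at each time, with its 95% interval from limma and filled points where the adjusted p is under 0.05. On the log2(FPKM + 1) scale Fcgr2b stands highest at 6 h at 1.97 and Fcgr1 lowest at 0.61. At 72 h Fcgr1 stands highest at 4.38 and Syk lowest at 1.96.

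The order of the genes by timing can be read from how much of the 72 h log2FC was present at 6 h. This share was 66.7% for Syk, 53.7% for Fcgr2b, 43.6% for Fcgr3, 30.7% for Fcgr4, 27.6% for Fcer1g, 23.8% for Tyrobp and 13.9% for Fcgr1. The shares are a description of group means, without a test between genes. Leaving out 1 mouse at a time moved them, from 14.6% to 32.7% for Tyrobp, 21.4% to 33.3% for Fcer1g, 23.1% to 35.4% for Fcgr4 and 32.6% to 55.8% for Fcgr3, so that the order among these genes was not stable. Syk stayed at 59.5% to 72.5%, Fcgr2b at 50.02% to 60.9% and Fcgr1 at 10.8% to 16.5%. With a pseudocount of 0.1 the share of Fcgr4 was 42.7%. Neighbouring times were also compared directly. From 10 min to 1 h 0 of 7 genes changed in limma, while 0.391% of all genes rose and 0.211% fell. At an unadjusted p under 0.05 in limma there were 0 of the 7 and 1739 of 13298 genes tested. None of the 7 lay wholly above its 10 min level (6.19% of all genes). From 1 h to 6 h 6 of 7 rose (9.32% of all genes, with 11.2% falling) and 7 lay without overlap above 1 h (17.8% of all genes), with Tyrobp at a log2FC of 0.93 and an adjusted p of 0.091.

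From 6 h to 24 h 2 of the 7 genes rose, Fcgr1 by a log2FC of 1.91 ± 0.28 (adjusted p = 0.0152) and Fcer1g by 1.23 ± 0.34 (adjusted p = 0.0499), against 12.5% of all genes that rose and 1.94% that fell. The same 2 genes were the ones without overlap (36.2% of all genes). With a replicate block 0 of 7 passed, and leaving out 1 mouse at a time gave 0 or 1, with 0 left without the second 6 h, the third 6 h or the second 24 h mouse. Over all genes 1664 rose as reported, 1 with the block and 1, 1 and 27 without these mice. The log2FC of Fcgr1 stayed between 1.58 and 2.11 with 1 mouse left out. For Fcgr2b, Fcgr4 and Syk the interval of this difference was -0.73 to 1.63, -0.59 to 1.23 and -0.36 to 0.89. From 24 h to 72 h 4 of 7 rose (29.7% of all genes, with 13.5% falling), and these 4 had no overlap (37.3% of all genes), namely Fcgr4 by 2.22 ± 0.34 (adjusted p = 0.00195), Tyrobp by 1.90 ± 0.34 (0.00384), Fcgr1 by 1.87 ± 0.26 (0.00133) and Fcer1g by 1.67 ± 0.27 (0.00255). Fcgr2b (1.24, adjusted p = 0.0691), Fcgr3 (1.15, 0.0593) and Syk (0.39, 0.238) did not pass. Without the third 24 h mouse all 7 did, while the rises over all genes went from 3963 to 4818.

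The balance of the receptors was followed as the share of each in their summed FPKM. In control mice Fcgr3 made up 49.7% ± 2.90 (SD, n = 3), Fcgr2b 37.2% ± 2.34, Fcgr1 11.5% ± 1.05 and Fcgr4 1.54% ± 0.432. At 6 h Fcgr2b took 39.1%, 50.9% and 50.6% in the 3 mice, all above the controls (34.5% to 38.8%), while Fcgr1 took 5.99% ± 1.70. The Fcgr1 share was below every control at 10 min (7.98% ± 2.18) and 1 h (8.67% ± 1.297) too. By 72 h the make-up had turned, with Fcgr1 at 21.8% ± 1.08 and Fcgr4 at 5.13% ± 0.394, both above every control, and Fcgr3 at 39.0% ± 1.34 and Fcgr2b at 34.0% ± 0.454, both below every control, Fcgr2b by a narrow gap (at most 34.497% against at least 34.547%).

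**Figure D3:**
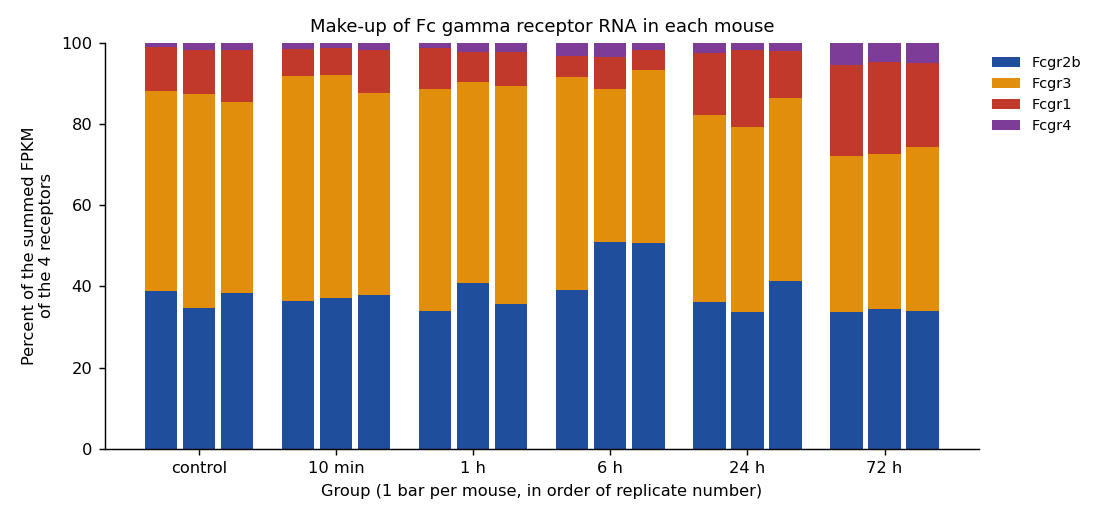
Percent of the summed FPKM of the 4 receptors taken by each, with 1 bar per mouse. The inhibitory receptor Fcgr2b takes 50.9% and 50.6% in a pair of 6 h mice against 34.5% to 38.8% in controls, and Fcgr1 takes 20.6% to 22.7% at 72 h.

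Taken as a ratio of the activating sum (Fcgr1, Fcgr3 and Fcgr4) to Fcgr2b, control mice were at 1.58, 1.89 and 1.61. The 6 h mice were at 1.56, 0.965 and 0.977, all below the controls though the first only just, and the 72 h mice at 1.97, 1.90 and 1.96, all above them though the lowest only just (1.899 against 1.895). A permutation test over the 6 groups gave p = 0.0255, and an adjusted p of 0.153 over the 6 tests of this ratio, so it did not pass. Each time point against control could not go below an exact two-sided p of 0.1, the value reached at 6 h (a log2 difference of -0.57) and at 72 h (0.20). The time point tests thus could not pass, yet they were counted in the adjustment of the test over the 6 groups. At 10 min, 1 h and 24 h the exact p was 0.9 to 1. The outcome changed with how the ratio was formed. In controls Fcgr3 made up most of the activating sum (49.7% of the summed FPKM of the receptors, against 11.5% for Fcgr1 and 1.54% for Fcgr4). Without Fcgr3, the gene that shares sequence with Fcgr2b, the ratio was therefore mostly that of Fcgr1 to Fcgr2b. The overall adjusted p was then 0.00024, with log2 differences of -0.92 at 6 h and 1.183 at 72 h. With the mean of the log2 values of the 3 activating genes it was 0.00894, and without the first 6 h mouse 0.0238.

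Levels per length allow the genes to be ranked within a group. In control mice the order was Fcgr3, Syk, Fcgr2b, Tyrobp, Fcer1g, Fcgr1 and Fcgr4, and the ranges of Fcgr3 and Syk, of Syk and Fcgr2b and of Tyrobp and Fcer1g overlapped. At 72 h it was Fcgr3, Fcgr2b, Tyrobp, Fcer1g, Fcgr1, Syk and Fcgr4, with overlap between Fcgr3 and Fcgr2b and between Fcgr2b and Tyrobp, and separate ranges below. Syk thus went from the second place at 8.33 ± 0.997 FPKM (SD, n = 3) to the sixth at 35.3 ± 3.15, while Fcer1g went from 3.96 ± 0.730 to 78.1 ± 4.28.

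Leukocyte content was higher on average at the later times too. Ptprc, the pan-leukocyte phosphatase CD45, averaged 2.67, 3.997 and 14.2 times control at 6, 24 and 72 h, and the pan-leukocyte list 2.15, 6.13 and 15.3 times. At 6 h Ptprc did not pass in limma (adjusted p = 0.0716), and 3 of 10 genes of the list rose (11.6% of all genes). The second 6 h mouse had a list sum of 90.4 FPKM, within the control range of 73.1 to 95.2. Its monocyte genes summed to 21.4 FPKM (controls 6.48 to 7.82) and its neutrophil genes to 120 (controls 2.56 to 5.30). Its macrophage genes summed to 280 (controls 286 to 334). All 7 members lay above every control in that mouse, Tyrobp narrowly (5.56 against 5.37 FPKM) and Fcgr2b at 21.6 against 8.91. Monocyte genes were at 5.61, 21.2 and 24.1 times control, neutrophil genes at 132, 111 and 17.2 times, and macrophage genes at 0.995, 1.44 and 8.63 times. Without the third 24 h mouse the monocyte and neutrophil folds at 24 h were 11.6 and 34.5, and without the first 6 h mouse the neutrophil fold at 6 h was 65.8. Most of the neutrophil sum at 6 h was S100a9 and S100a8, with means of 382 and 84.3 of 504 FPKM. The neutrophil sum was already 3.45 and 6.05 times control at 10 min and 1 h. At 1 h 2 of the 8 neutrophil genes tested rose in limma (0.669% of all genes). They were S100a8 (log2FC 1.66, adjusted p = 0.000224) and S100a9 (2.28, 0.0151). Of 12 macrophage genes 4 rose and 4 fell at 6 h. At 72 h the folds of Fcgr4, Fcgr1, Tyrobp and Fcer1g (50.8, 29.3, 22.0 and 19.7) were above that of the pan-leukocyte list, and those of Fcgr2b, Fcgr3 and Syk (14.2, 12.3 and 4.24) were below it. Among other cells that use these adaptors, the 8 mast cell genes summed to 3.09 to 4.48 FPKM in controls and 4.82 to 7.03 at 72 h, with Fcer1a and Ms4a2 listed at 0 in 10 and 12 of the 18 mice and Kit called higher at 24 h (log2FC 0.87, adjusted p = 0.0444) and 72 h (0.63). The 7 NK cell genes summed to 0.481 to 0.883 FPKM in controls and 2.32 to 3.99 at 72 h, with Ncr1 at no more than 0.105 FPKM and Gzma called higher at 72 h (log2FC 0.94, adjusted p = 0.000362). How much of each change these cells carry was not tested.

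Set against the pan-leukocyte list, the genes parted. Syk was at 9.26 to 10.7 FPKM per 100 FPKM of that list in controls, 9.42, 11.5 and 23.5 at 6 h, 5.19 to 6.05 a day later and 2.58 to 3.03 by 72 h, below every control at both of these times. Fcgr2b went from 7.82 to 9.36 in controls to 13.4 to 23.9 at 6 h, above every control, and was back at 6.98 to 9.19 at 72 h. Fcgr3 was at 11.5 to 12.0 in controls, 12.6 to 14.8 at 10 min and 17.7 to 19.6 at 6 h, both above every control, and at 7.69 to 11.03 at 72 h, below every control. Fcgr1 was above every control at 24 h (3.35 to 4.15) and 72 h (4.58 to 5.65, against 2.45 to 3.10 in controls), and Fcgr4 at 6 h (0.773 to 1.62) and 72 h (0.972 to 1.41, against 0.247 to 0.445). Fcer1g was above every control at 72 h alone (5.45 to 6.54, against 4.18 to 5.04), and Tyrobp overlapped its controls at every time. These ratios carry no test, and the list itself holds genes expressed at unequal levels by different leukocytes. Its largest part was Lcp1, with 44.9 of the mean sum of 83.7 FPKM in controls and 730 of 1278 at 72 h.

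**Figure D4:**
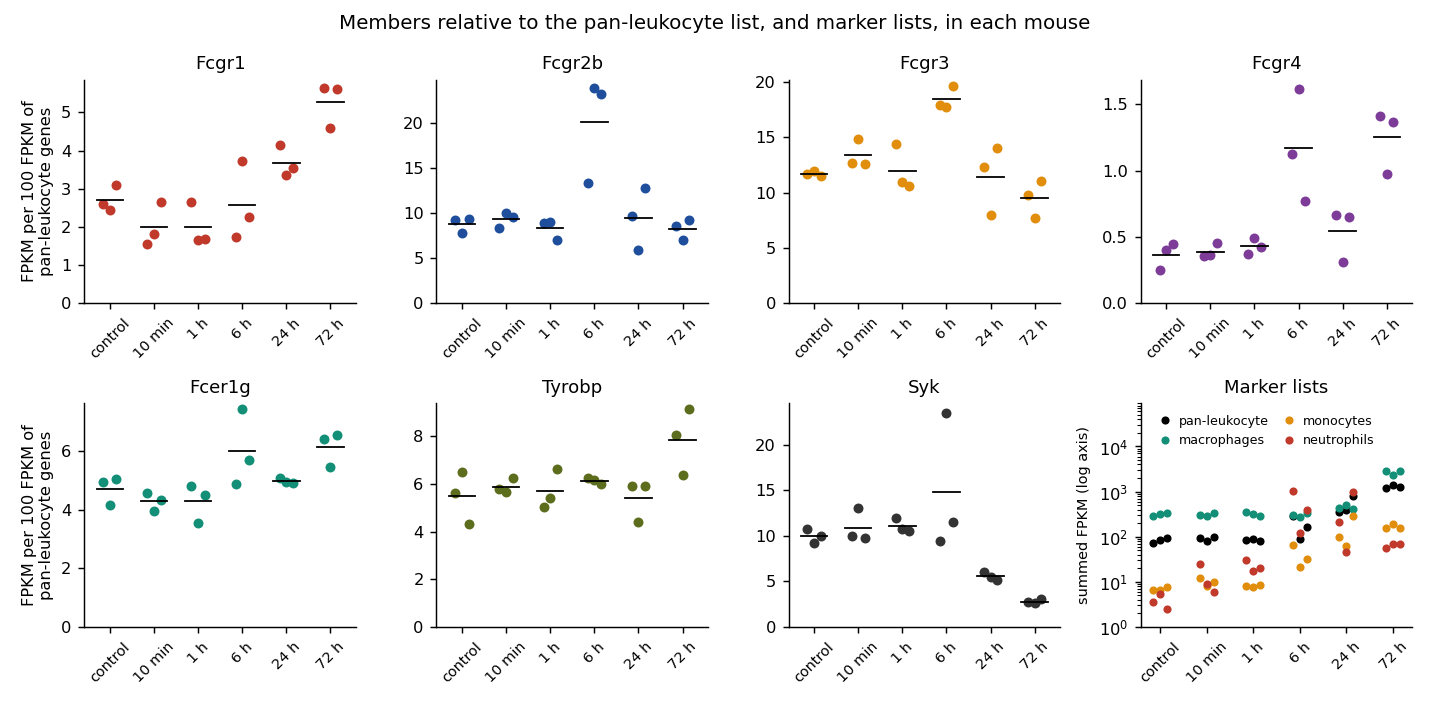
FPKM of each gene per 100 FPKM of 10 pan-leukocyte genes (linear axes from 0) in each mouse with the group mean as a line, and the summed FPKM of 4 marker lists (log axis). Fcgr2b and Fcgr3 peak at 6 h, Fcgr1 is highest at 72 h, and Syk is lowest at 72 h, at 2.58 to 3.03.

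The rest of the pathway was read from 9 lists of 151 symbols, 115 of them tested, with a few symbols that also stand in a second list or a marker list. Among Src family kinases and their regulators, which phosphorylate the ITAM, 3 of 11 rose at 6 h, 7 a day after ligation and 10 at 72 h, while none fell. Fgr went from 0.127 ± 0.0116 FPKM (SD, n = 3) to 17.3 ± 2.44 at 72 h (log2FC 4.01). Lck, a kinase of T cells, was the 1 gene of this list that rose at 1 h (log2FC 0.79, adjusted p = 0.0336). Among kinases, adaptors and enzymes downstream of Syk 6 of 24 rose at 6 h (11.6% of all genes), 15 at 24 h (26.2%) and 21 at 72 h (53.1%), and 2 fell each time. The adaptors Lat2 (log2FC 4.10) and Lcp2 (3.501) and the exchange factor Vav1 (3.34) had the largest changes at 72 h.

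Phagocytosis and oxidase effectors rose in 8 of 22 cases at 6 h, 19 at 24 h and 22 at 72 h, when their median log2FC was 2.90 against 0.29 over all genes. The oxidase subunit Ncf1 was at 3.72 ± 0.303 FPKM in controls and 83.1 ± 6.57 at 72 h (log2FC 4.16), the myosin Myo1f rose by 3.97 and the actin regulator Coro1a by 3.79. Other receptors that use Fcer1g or Tyrobp rose in 7 of 19 cases at 6 h, 15 at 24 h and 18 at 72 h. Trem2, the lipid-sensing partner of Tyrobp, was at 2.08 ± 0.740 FPKM in controls, 2.47 ± 0.310 at 6 h (adjusted p = 0.445) and 186 ± 27.6 at 72 h (log2FC 5.94), whereas the C-type lectin Clec4d was at 7.17 ± 5.39 by 6 h (log2FC 2.70, adjusted p = 0.00533). Pirb, which stands in this list although it is an inhibitory receptor with ITIM motifs of its own, rose from 1.97 ± 0.231 to 35.0 ± 3.42 FPKM at 72 h (log2FC 3.60).

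Of the list of receptors with ITIM motifs 8 of 19 rose and 2 fell at 6 h, and 12 and then 18 rose at 24 and 72 h. Lilrb4a (log2FC 4.47), Lilr4b (4.19) and Cd300lf (4.08) had its largest changes at 72 h. Lilr4b is a close relative of Lilrb4a that lacks ITIM motifs, and Cd300lf was listed at 0 in all controls. Of inhibitory phosphatases, Dok adaptors and Cbl ligases 5 of 10 rose and 1 fell at 6 h, 7 rose and 1 fell at 24 h, and 8 rose and 2 fell at 72 h, the rises including Ptpn6 (3.32), Dok3 (3.22) and Inpp5d (2.63), the phosphatase that Fcgr2b recruits. The counts of these lists stand against 11.6%, 26.2% and 53.1% of all genes that rose at 6, 24 and 72 h, and nothing particular to these lists is read from them.

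Some genes of these lists went down, and they are named here after their values were seen. At 6 h 9 genes fell. Rasgrp3, a Ras activator downstream of Syk, fell from 15.6 ± 0.929 to 6.87 ± 0.398 FPKM (log2FC -1.08, adjusted p = 6.00e-04). Fcgrt, the neonatal Fc receptor that recycles IgG, fell from 35.3 ± 1.20 to 23.2 ± 1.39 FPKM (log2FC -0.59, adjusted p = 0.00292) and was at 20.7 ± 5.71 at 24 h (adjusted p = 0.0229). The ITIM receptors Lair1 (log2FC -0.91) and Cd72 (-0.74), Pld4 (-0.74), Inppl1 (-0.60), Plcg1 (-0.39), Cybb (-0.39) and Trim21 (-0.33) were the others, against 16.8% of all genes that fell at 6 h. At 24 h 4 genes fell (11.4% of all genes), Fcgrt, Rasgrp3, Plcg1 and Inppl1, and at 72 h 4 (24.2%), Plcg1, Inppl1, Rasgrp3 and Ptpn11.

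Among the other Fc receptors 5 were tested, of which 0 rose at 6 h and 24 h and 4 at 72 h. Over all genes 11.6%, 26.2% and 53.1% rose at these times. Fcrls, an Fc receptor-like scavenger receptor of macrophages, was at 1.96 ± 0.409 FPKM in controls, 1.41 ± 0.389 at 6 h and 58.9 ± 3.68 at 72 h (log2FC 4.34). Fcer2a, the low-affinity IgE receptor of B cells, rose at 1 h (log2FC 0.63, adjusted p = 0.0252) and at 72 h (0.67). Fcrlb was at 1.505, 0.543 and 10.7 FPKM in the 24 h mice (log2FC 1.78, adjusted p = 0.0738) and at 0.822 ± 0.168 at 72 h (log2FC 0.80, adjusted p = 0.000127). Of the other ITAM adaptors and Syk relatives 4 were tested and all 4 rose at 72 h (53.1% of all genes). Cd79b rose by a log2FC of 1.48, Hcst, an adaptor without an ITAM, by 0.91 and Cd79a by 0.71. Zap70, the relative of Syk in T cells, rose by 0.52. Of 15 immunoglobulin and plasma cell symbols 3 were in the table and 1, Sdc1, was tested, so antibody transcripts were not analysed here.

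**Figure D5:**
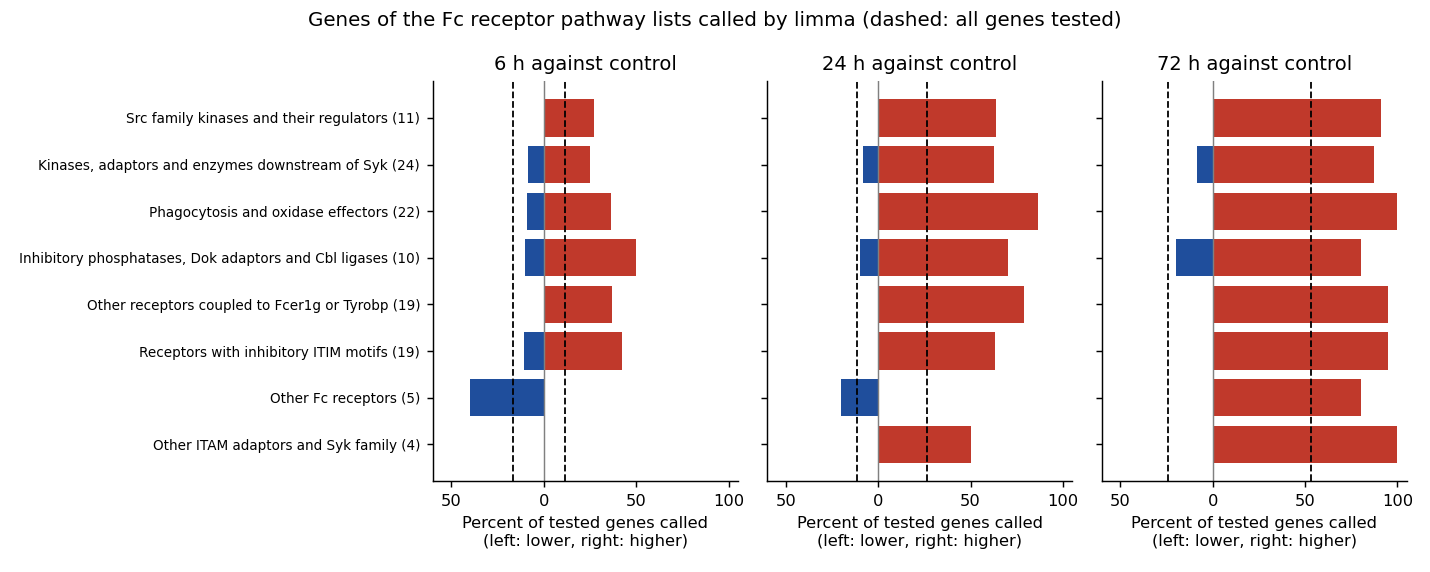
Percent of the tested genes of each pathway list (number tested in brackets) that limma called higher (right) or lower (left) against control at 6, 24 and 72 h, with dashed lines for all genes tested. Phagocytosis and oxidase effectors reach 22 of 22 higher at 72 h, where the line for all genes stands at 53.1%.

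Over the 18 mice, which share the time course and hence its trend, the genes closest to the mean profile of the 7 were Alox5ap (Pearson r = 0.996), AB124611 (0.996), Clec4n (0.995), Spi1 (0.994) and Pirb (0.994). The closest to single genes were Cyth4 and AI662270 for Fcgr1, Vmp1 and Hmox1 for Fcgr2b, Cd53 and Snx20 for Fcgr3, Ifi204 and Pla2g7 for Fcgr4, Sh3bp2 and Skap2 for Fcer1g, Inpp5d and Cd300lb for Tyrobp, and Dhx33 and B4galt1 for Syk. The lowest of these r was 0.986 (B4galt1) and the highest 0.995 (Sh3bp2). Among the 7 themselves r ran from 0.888 between Fcgr1 and Syk to 0.989 between Fcer1g and Tyrobp.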

How the data were processed

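Poly(A) RNA of 18 mouse hearts was analysed, with 3 mice in each of 6 groups. The authors trimmed the 150-base read pairs with cutadapt 1.18, mapped them to mm10 with HISAT2 2.1.0 and estimated expression with StringTie 1.3.4d, and the annotation is not given in the sources used here. The values are FPKM for each gene symbol and mouse, used as the authors deposited them. It has no counts, so depth and counting error are unknown and precision rests on the spread between mice. All 18 columns were matched to sample titles, although those of 1 h and of 1 mouse at 6 h are spelled differently, and no 2 columns were identical. The 3 replicates of a group are taken as separate mice.

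Of 24419 symbols 13333 reached FPKM 1 in at least 1 mouse, as in the filter of the study, and 13297 to 13330 of these varied within a comparison and were tested. limma 3.58.1 (lmFit and eBayes with a variance trend, R 4.3.3) was fitted to log2(FPKM + 1) on the 6 mice of each of 9 comparisons, two-sided, with false discovery rates after Benjamini and Hochberg taken across the genes tested. The procedure was tested on simulated data first. The receptor ratio was tested with 100000 permutations over 6 groups and exact permutation tests for each time, all two-sided, adjusted over 6 tests. Python 3.11.15, numpy 2.4.6, scipy 1.17.1, pandas 2.3.3 and matplotlib 3.10.9 were used. Lists are described by counts and medians only.

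The members, the lists and the tests were chosen with earlier results of these data known. All 7 members are named, and the marker lists are given mainly as sums. From each pathway list the 3 largest changes called at 72 h are named, with any called at 10 min or 1 h. Ptprc, the 5 genes most like the mean of the members and the 2 most like each are named too. One item that this rule names is not reported here. Alternatives were another pseudocount, other filters, 3 scalings, a shared fit, no variance trend, a replicate block and leaving out each mouse. Timing shares and marker folds with 1 mouse left out, and timing shares with a pseudocount of 0.1, were added after seeing the data. Replicate numbers did not pair the mice, since deviations of same-numbered mice correlated between -0.327 and 0.415, with 5 of 45 pairs over 0.1.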

Additional observations from a re-analysis of the deposited data

Results flagged for a closer look

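Groups of 3 mice are too small for a check of single outlying mice. The change against control differed between neighbouring times in the direct limma comparison for 12 pairs of gene and step. From 1 h to 6 h the log2FC was 0.91 for Fcgr1, 2.03 for Fcgr2b, 1.49 for Fcgr3, 1.07 for Fcgr4, 1.20 for Fcer1g and 1.16 for Syk. From 6 h to 24 h it was 1.91 for Fcgr1 and 1.23 for Fcer1g, and from 24 h to 72 h it was 1.87 for Fcgr1, 2.22 for Fcgr4, 1.67 for Fcer1g and 1.90 for Tyrobp. All 12 were rises, in which every mouse of the later group lay above every mouse of the earlier one.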

How the results depend on the processing

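The counts of members called against control were 0 for 10 min and 1 h, and 7 for 24 h and 72 h, under each of the 9 settings that kept all mice, and 5 or 6 for 6 h. Leaving out 1 mouse gave 0 for 10 min and 1 h, 2 to 7 for 6 h, 5 to 7 for 24 h and 7 for 72 h, with 2 left at 6 h without the first control mouse (Fcgr2b and Syk) and 3 without the second. It gave 0 from 10 min to 1 h, 2 to 7 from 1 h to 6 h (2 without the second 1 h mouse, 3 without the third), 0 to 1 from 6 h to 24 h and 4 to 7 from 24 h to 72 h. Over all genes the rises from 1 h to 6 h went from 1241 to 458 without the second 1 h mouse and to 588 without the third. At 24 h against control they went from 3496 to 1262, 1319 and 1646 without each control mouse in turn. The 2 calls from 6 h to 24 h fell to 1 without a filter, under median-of-ratios scaling, an equal sum of FPKM or quantile normalization. They fell to 0 with the replicate block, and rose to 3 (Fcer1g, Fcgr1 and Tyrobp) with all 18 mice in one fit. Over all genes the 1664 rises of this step became 976, 403, 1817 and 372 in the first 4 of these settings. They became 1 with the block and 4848 with all 18 mice in one fit. The replicate numbers are no pairing, and 5 of 18 mice correlated best with their own number. The replicate block also ended the 6 h call of Fcgr1 and raised the count from 24 h to 72 h from 4 to 6. Rises over all genes in that last step went from 3963 to 3803.

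The ratio of activating to inhibitory receptors had an overall adjusted p of 0.00024 without Fcgr3 and 0.00894 with the mean of log2 values, and from 0.0238 to 0.3 with 1 mouse left out. Without Fcgr3 the activating sum was mostly Fcgr1. The log2 difference of that ratio from control was -0.47 (10 min), -0.27 (1 h), -0.92 (6 h), 0.41 (24 h) and 1.183 (72 h). With the mean of log2 values the difference was -0.15 (10 min), -0.88 (6 h) and -0.32 (24 h). Leaving out 1 mouse gave a range of -0.05 to 0.09 (10 min), of -0.06 to 0.16 (1 h), of -0.80 to -0.45 (6 h), of -0.09 to 0.14 (24 h) and of 0.15 to 0.29 (72 h). The cause of these shifts was not tested.

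Among the members' log2FC, signs turned in differences that were not called. Under an equal sum of FPKM Fcer1g was at 0.0087 for 10 min. Leaving out 1 mouse gave -0.022 to 0.11 for Fcgr4 and -0.079 to 0.11 for Fcer1g at 10 min. At 1 h it gave -0.14 to 0.072 for Fcgr2b, -0.087 to 0.14 for Fcgr3, -0.013 to 0.12 for Fcgr4, -0.17 to 0.020 for Fcer1g and -0.0043 to 0.18 for Tyrobp. From 10 min to 1 h it gave -0.21 to 0.11 for Fcgr1 and -0.027 to 0.053 for Fcgr4. From 6 h to 24 h it gave -0.15 to 0.90 for Fcgr2b, -0.067 to 0.67 for Fcgr4 and -0.046 to 0.42 for Syk, each lowest without the third 24 h mouse.

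Scaling moves the background. At 72 h the median log2FC of all genes was 0.29 as deposited (7081 rises and 3226 falls), 0.04 after median-of-ratios scaling (5243 and 4752) and -0.10 after quantile normalization (4386 and 5710). At 24 h the rises and falls were 3496 and 1516, 2535 and 2317, and 2215 and 2689, and at 6 h 1543 and 2233, 1977 and 1513, and 1688 and 2119. The members' log2FC at 72 h ran from 1.66 to 4.09 and from 1.67 to 4.13 under these scalings, with Syk lowest and Fcgr1 highest, and all 7 were called. Depth is unknown, so Fcgr4 in control mice, under 1 FPKM, is the least certain level.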
